A study of Mus musculus with 6 samples.

Results

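Genes of the cell division cycle and of DNA replication were read in the liver of 6 mice. The set holds 38 genes, picked by symbol: 14 that control the G1 phase and the entry into S phase, 10 that copy DNA or supply its building blocks, and 14 of G2 and mitosis. Of these, 35 were measured by a probe set whose annotation names that gene alone, out of 14860 genes measured in that way. Pcna, Rrm2 and Ccnb1 had no such probe set and are not analysed here. Of the measured members Plk1 alone had a second such probe set, and its brighter one was used.

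The DeltaHepKlf6 group held 3 mice in which Klf6 was knocked down in hepatocytes only, a genotype that one label calls a knockout. The Control group held 3 wild type littermates. Both were fed a high-fat diet (Teklad TD06415) for 8 weeks, and each mouse gave 1 array of whole liver RNA on an Affymetrix mouse exon array, with expression on a log2 scale. Nothing in the labels ties a DeltaHepKlf6 mouse to a particular Control mouse, and p-values measure the spread between these mice. The labels describe better glucose tolerance and less liver fat in DeltaHepKlf6 mice, and glucose intolerance with marked fat in Control mice. Sex, age and the Cre driver are not given in the sources used here.

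Cells enter the division cycle when D-type cyclins and their kinases CDK4 and CDK6 inactivate the retinoblastoma protein. This frees E2F factors, which switch on cyclin E and the genes of DNA replication. A later programme of cyclin B, CDK1 and the Aurora and Polo kinases drives mitosis. Most hepatocytes of an adult liver rest outside the cycle, and many are polyploid. KLF6, the factor targeted here, is known as a growth suppressor that can induce the kinase inhibitor p21, encoded by Cdkn1a, and has been reported to bind cyclin D1. The data were therefore read by phase: G1 control, replication and mitosis, each by genotype and by mouse.

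Klf6 itself was 5.93, 5.43 and 5.45 in DeltaHepKlf6 1, 2 and 3, against 6.80, 6.09 and 5.88 in Control 1, 2 and 3. The groups overlapped, with DeltaHepKlf6 1 above Control 3, and the difference of -0.65 ± 0.28 (SE) did not pass limma's test (unadjusted p = 0.0587, adjusted p = 0.998). Here and throughout, a difference is the DeltaHepKlf6 mean less the Control mean, in log2 units. The array medians lay between 5.49 and 5.55. Hepatocyte markers were close to each other in all arrays, with list means of 12.42, 12.39 and 12.35 in DeltaHepKlf6 and 12.44, 12.39 and 12.35 in Control. Control 3 stood apart in 7 of 7 measured exocrine pancreas markers, with a list mean of 10.92, against 4.91, 4.93 and 4.72 in DeltaHepKlf6 and 4.70 and 4.57 in the other Control livers. Values without Control 3 are therefore given beside the results of each phase.

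No cell cycle gene passed the test. Limma called 0 of the 35 members at a Benjamini-Hochberg adjusted p under 0.05, where the background over all 23332 probe sets was 0.0%. At an unadjusted p under 0.05 it counted 0 members, against a background of 3.21% of probe sets (1.61% higher and 1.61% lower), and the smallest unadjusted p was 0.141, for Ccnd3. The median difference was 0.01 over the 35 members, with 20 higher and 15 lower, and -0.05 over all 14860 genes, of which 62.1% were lower. A difference of at least 0.2 in size was seen in 9 of 35 members, against 28.7% of all genes. By phase the median was 0.03 for G1 control, 0.005 for replication and 0.003 for mitosis. Without Control 3 these medians were -0.04, -0.06 and 0.025.

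**Figure D1:**
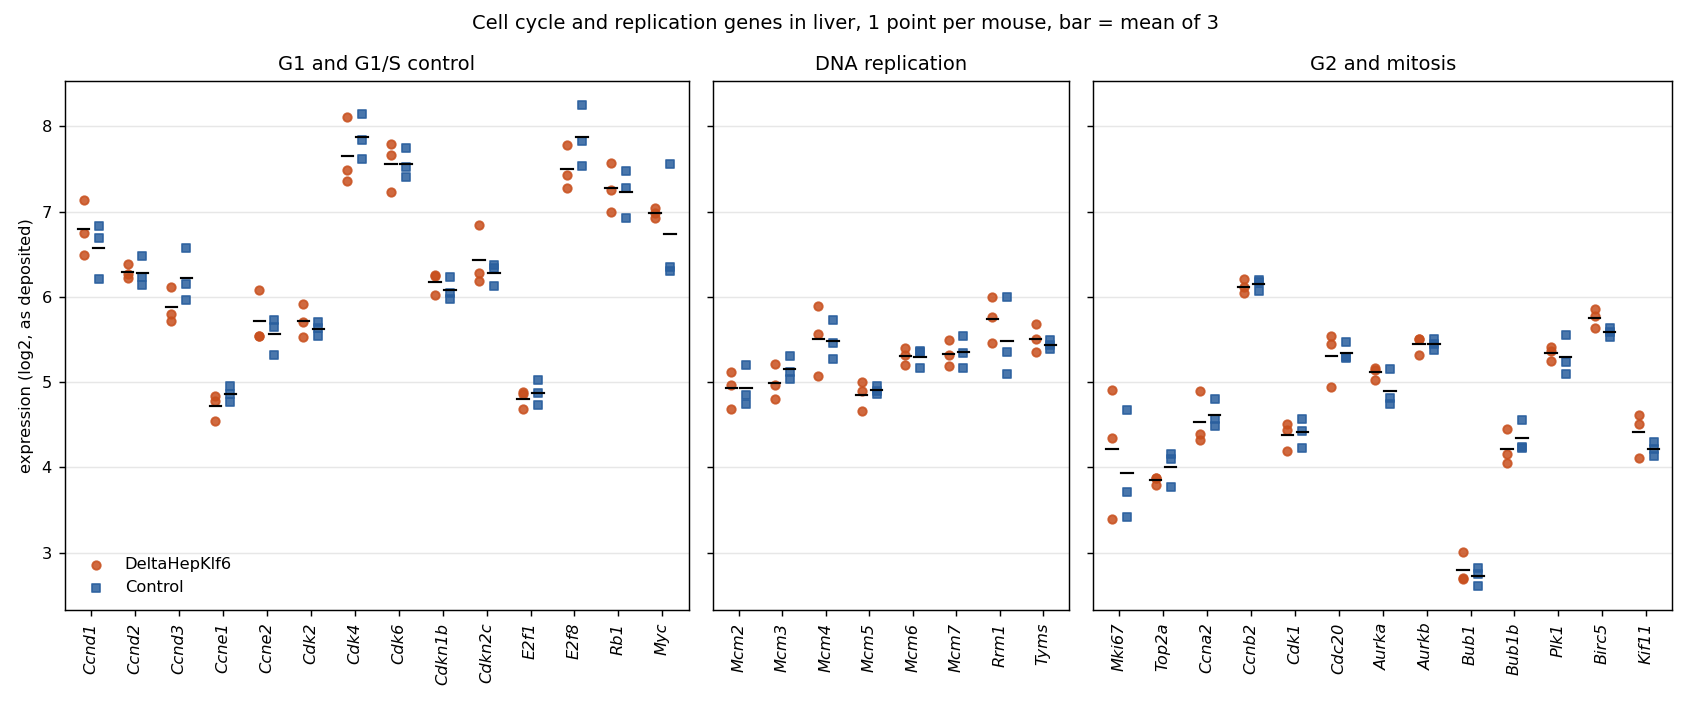
Log2 expression of the 35 measured members, with genes along the horizontal axis in 3 panels by phase, 1 point per mouse (circles DeltaHepKlf6, squares Control) and a bar at the mean of 3 mice. The groups overlap in 34 of 35 members, and Birc5 is the exception.

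The width of the intervals shows what size of difference these 6 mice leave room for. In 33 of 35 members the 95% confidence interval of the difference lay within a 2-fold change in either direction. The 2 members whose interval reached past 2-fold were Myc and Mki67, which varied most between mice. Over all genes 89.3% of intervals lay within 2-fold. A 1.5-fold change lay outside the interval of 23 members, among them Cdk2, the cyclin E partner, Cdkn1b, the inhibitor p27, and 6 of the 8 replication genes. For the other 12, including Ccnd1, Ccnd3, Cdk4 and E2f8, the interval reached past a 1.5-fold change on at least 1 side. A change of that size lay within it. Over all genes 53.2% of intervals lay within 1.5-fold. Below the 95th percentile of the receptor genes described later lay 4 of 8 replication genes and 9 of 13 mitotic genes. What such dim genes could show is limited by background, so their intervals bound the array values rather than the RNA.

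**Figure D2:**
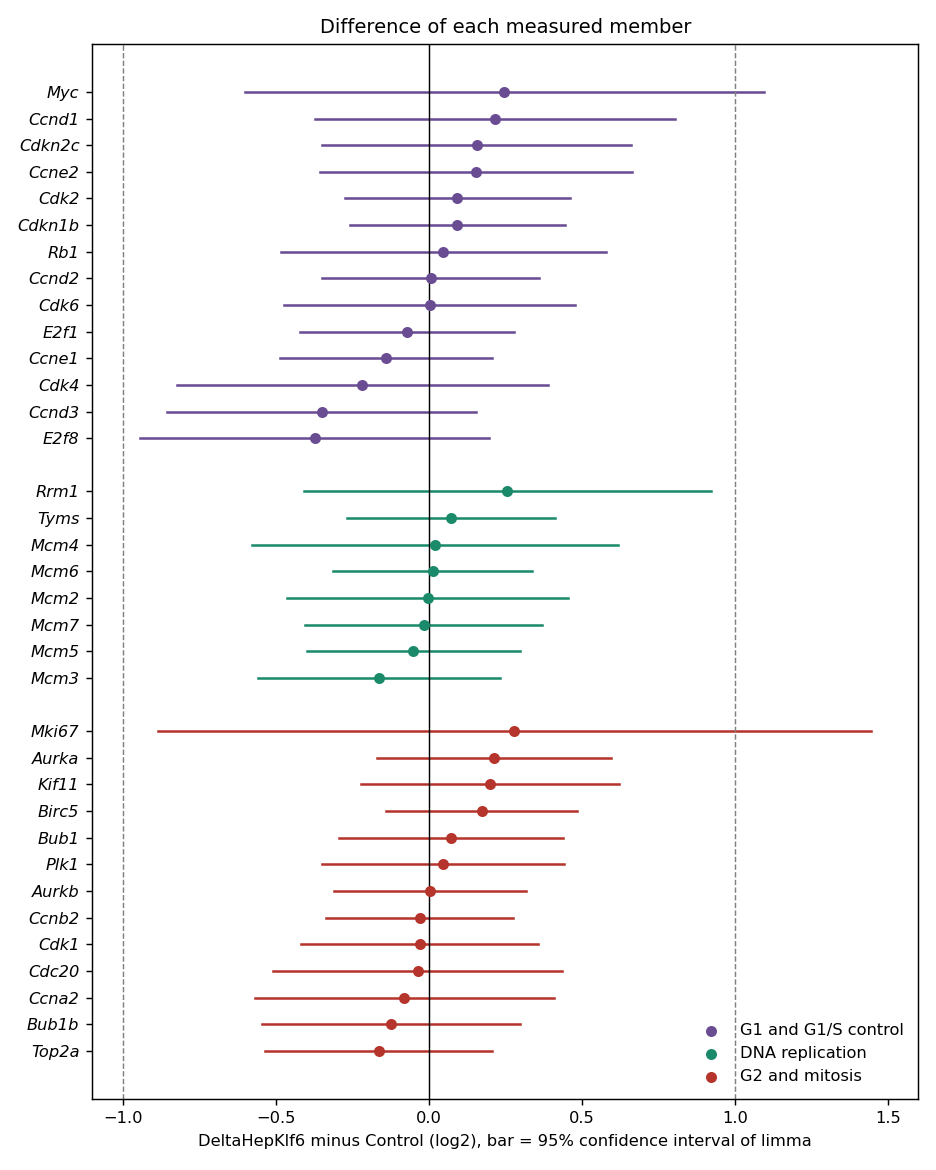
Difference of DeltaHepKlf6 minus Control on the log2 scale (horizontal axis) for each measured member, with the 95% confidence interval of limma. Dashed lines mark 2-fold changes, every interval includes 0, and those of Myc and Mki67 extend past the right-hand line.

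Among the genes of G1 control, 9 of 14 were higher and 5 lower in DeltaHepKlf6, and none passed the test. The D-type cyclins, the first to answer growth signals, had differences of both signs. Ccnd3, encoding cyclin D3, was 6.11, 5.80 and 5.72 in DeltaHepKlf6 livers, against 6.57, 5.96 and 6.15 in Control livers. Its mean was 5.88 ± 0.21 in DeltaHepKlf6 and 6.23 ± 0.31 in Control (SD, n = 3 each). The groups overlapped because DeltaHepKlf6 1 lay above Control 2. The difference was -0.35 ± 0.21 (SE), with a 95% interval of -0.85 to 0.15 (limma, unadjusted p = 0.141, adjusted p = 0.998). It was -0.18 without Control 1, where Ccnd3 was highest, and -0.39 without Control 3.

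Ccnd1, encoding cyclin D1, had the opposite sign. It was 7.14, 6.75 and 6.49 in DeltaHepKlf6 and 6.21, 6.83 and 6.69 in Control, a difference of 0.22 ± 0.24 (SE). The values of the genotypes interleaved, and without Control 1, the lowest of the 6 arrays, the difference was 0.03. Ccnd2, encoding cyclin D2, was 6.22, 6.27 and 6.38 in DeltaHepKlf6 and 6.48, 6.23 and 6.14 in Control, with a difference of 0.007 ± 0.15 (SE).

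The kinases that bind these cyclins varied between mice of the same genotype. Cdk4 was 7.49, 8.11 and 7.36 in DeltaHepKlf6 livers, against 8.15, 7.84 and 7.62 in Control livers. DeltaHepKlf6 2 lay at the level of Control 1 while the other DeltaHepKlf6 livers lay below every Control liver. The difference was -0.22 ± 0.25 (SE), or -0.445 without DeltaHepKlf6 2. Cdk6 was 7.79, 7.67 and 7.23 in DeltaHepKlf6 and 7.75, 7.41 and 7.52 in Control, a difference of 0.003 ± 0.20 (SE). Cdk2, whose product acts with cyclins E and A, differed by 0.09 ± 0.15 (SE).

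Cyclin E, the partner of CDK2 at the entry into S phase, was read through 2 genes with opposite signs. Ccne1 was 4.54, 4.84 and 4.78 in DeltaHepKlf6 and 4.86, 4.95 and 4.77 in Control. The values lay close together, with a difference of -0.14 ± 0.14 (SE) and a 95% interval of -0.49 to 0.21 (limma, unadjusted p = 0.365, adjusted p = 0.998). Ccne2 was 5.54, 6.08 and 5.54 in DeltaHepKlf6 and 5.32, 5.73 and 5.65 in Control. DeltaHepKlf6 2 stood above the other 5 livers, and the difference of 0.15 ± 0.21 (SE) was -0.03 without that mouse.

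Of the inhibitors, Cdkn2c, which encodes the CDK4 and CDK6 inhibitor p18, behaved in the same way. It was 6.28, 6.84 and 6.19 in DeltaHepKlf6 and 6.37, 6.34 and 6.13 in Control, so that DeltaHepKlf6 2 again stood alone, and the difference of 0.16 ± 0.21 (SE) was -0.045 without it. Cdkn1b differed by 0.09 ± 0.145 (SE). Rb1, encoding the retinoblastoma protein, differed by 0.05 ± 0.22 (SE). Cdkn1a, a reported KLF6 target outside the 38 genes, was 8.57, 9.23 and 7.83 in DeltaHepKlf6, against 10.06, 8.82 and 9.11 in Control. Its difference was -0.79 ± 0.46 (SE) with overlapping groups and did not pass limma's test (unadjusted p = 0.133, adjusted p = 0.998).

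The E2F family members of the set differ in role: E2F1 activates S phase genes, whereas E2F8 is an atypical repressor linked to polyploidy of hepatocytes in mice. E2f8 was 7.78, 7.28 and 7.43 in DeltaHepKlf6, against 8.25, 7.83 and 7.53 in Control. Its mean was 7.50 ± 0.26 in DeltaHepKlf6 and 7.87 ± 0.36 in Control (SD, n = 3 each). Only DeltaHepKlf6 1 and Control 3 were out of order. The difference, the most negative of the 35 members, was -0.37 ± 0.235 (SE), with a 95% interval of -0.94 to 0.20 (limma, unadjusted p = 0.162, adjusted p = 0.998). It was -0.54 without Control 3, -0.515 without DeltaHepKlf6 1 and -0.18 without Control 1. Leaving out Control 3 or DeltaHepKlf6 1 necessarily removed the overlap. In these settings 15.5% and 14.9% of all probe sets had no overlap. E2f1 was 4.68, 4.88 and 4.86 in DeltaHepKlf6 and 5.03, 4.87 and 4.73 in Control, a difference of -0.07 ± 0.14 (SE).

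Myc, a transcription factor gene induced when resting cells receive growth signals, was even among the DeltaHepKlf6 livers and split among the Control livers. It was 7.04, 6.93 and 6.98 in DeltaHepKlf6, against 7.56, 6.30 and 6.35 in Control. Control 1 was thus the highest of the 6 livers, and the other Control livers were the lowest. With all 6 arrays the difference was 0.25 ± 0.35 (SE), with a 95% interval of -0.60 to 1.095 (limma, unadjusted p = 0.507, adjusted p = 0.998). Without Control 1 it was 0.66 (limma, unadjusted p = 0.00592, adjusted p = 0.9997). The groups then had no overlap, which had to follow from leaving out the one Control liver above the DeltaHepKlf6 livers. In that setting 12.8% of all probe sets had no overlap. Without Control 3 the Myc difference was 0.05. Control 1 also had the highest list mean of neutrophil markers, 5.59, against 5.05, 4.70 and 4.59 in DeltaHepKlf6 and 5.08 and 4.85 in the other Control livers. Of the neutrophil genes Retnlg, S100a8, S100a9, Ngp and Csf3r were highest in Control 1, Mpo and Elane were not, and Camp was lowest. Control 1 was also the highest liver in the mean over all genes, 6.18. List means of macrophage, B and plasma cell, erythroid, endothelial, stellate cell and hepatocyte markers were highest in it too. The part of any of these in the Myc values was not tested.

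The replication genes had a median difference of 0.005, and their values varied by mouse. Their products were the helicase subunits Mcm2 to Mcm7, which open DNA at the fork, the large subunit of ribonucleotide reductase (Rrm1), which makes deoxynucleotides, and thymidylate synthase (Tyms), which makes thymidylate. Of the 8 measured genes, 4 were higher and 4 lower in DeltaHepKlf6. The 6 Mcm genes differed by between -0.16 and 0.02. Mcm3 was 4.97, 5.21 and 4.80 in DeltaHepKlf6 and 5.31, 5.04 and 5.12 in Control. Its difference was the largest of the helicase subunits, -0.16 ± 0.16 (SE), with a 95% interval of -0.56 to 0.23 (limma, unadjusted p = 0.353, adjusted p = 0.998).

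Mcm4 was 5.56, 5.89 and 5.07 in DeltaHepKlf6 and 5.73, 5.46 and 5.27 in Control. DeltaHepKlf6 held both the highest and the lowest liver, and the difference was 0.02 ± 0.25 (SE). Mcm2 was 4.97, 5.12 and 4.69 in DeltaHepKlf6 and 5.20, 4.74 and 4.85 in Control, a difference of -0.003 ± 0.19 (SE). Mcm5, Mcm6 and Mcm7 varied less, with differences of -0.05 ± 0.14, 0.01 ± 0.13 and -0.02 ± 0.16 (SE). Their 6 values spanned 4.66 to 5.0 for Mcm5, 5.17 to 5.4 for Mcm6 and 5.17 to 5.54 for Mcm7.

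Rrm1 was 5.76, 6.0 and 5.46 in DeltaHepKlf6, against 6.0, 5.35 and 5.10 in Control. As with Myc, Control 1 lay with the highest livers and the other Control livers were the lowest. The difference was 0.26 ± 0.27 (SE), with a 95% interval of -0.41 to 0.92 (limma, unadjusted p = 0.384, adjusted p = 0.998). Leaving out Control 1 gave 0.515, and leaving out Control 3 gave 0.065. Without Control 1, the one Control liver that overlapped, the groups were necessarily clear, where 12.8% of all probe sets were. Tyms was 5.50, 5.68 and 5.35 in DeltaHepKlf6 and 5.49, 5.43 and 5.39 in Control, and its difference of 0.07 ± 0.14 (SE) had a 95% interval of -0.27 to 0.41 (limma, unadjusted p = 0.620, adjusted p = 0.998).

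Set against each gene's own mean over the 6 mice, the replication genes were low in DeltaHepKlf6 3. In DeltaHepKlf6 3 all 8 lay below their mean, by 0.21 on average, and 5 of the 8 had their lowest value there. Among the 2403 genes of the same range of levels, 25.2% had their lowest value in that liver and 60.0% lay below their own mean. In DeltaHepKlf6 1, DeltaHepKlf6 2 and Control 1, 7 of 8 lay above their mean. The average deviation was 0.06, 0.18 and -0.21 in DeltaHepKlf6 1, 2 and 3, and 0.15, -0.05 and -0.12 in Control 1, 2 and 3. The spread of the whole array moved alongside: the interquartile range of all probe sets was 3.05, 3.19 and 2.76 in DeltaHepKlf6 and 3.29, 3.05 and 2.96 in Control. After quantile normalization, which gives every array the same spread, 8 of 8 still lay below their mean in DeltaHepKlf6 3, and 5 of 8 were lowest there, against 58.3% and 25.9% of genes of the same range of levels.

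**Figure D3:**
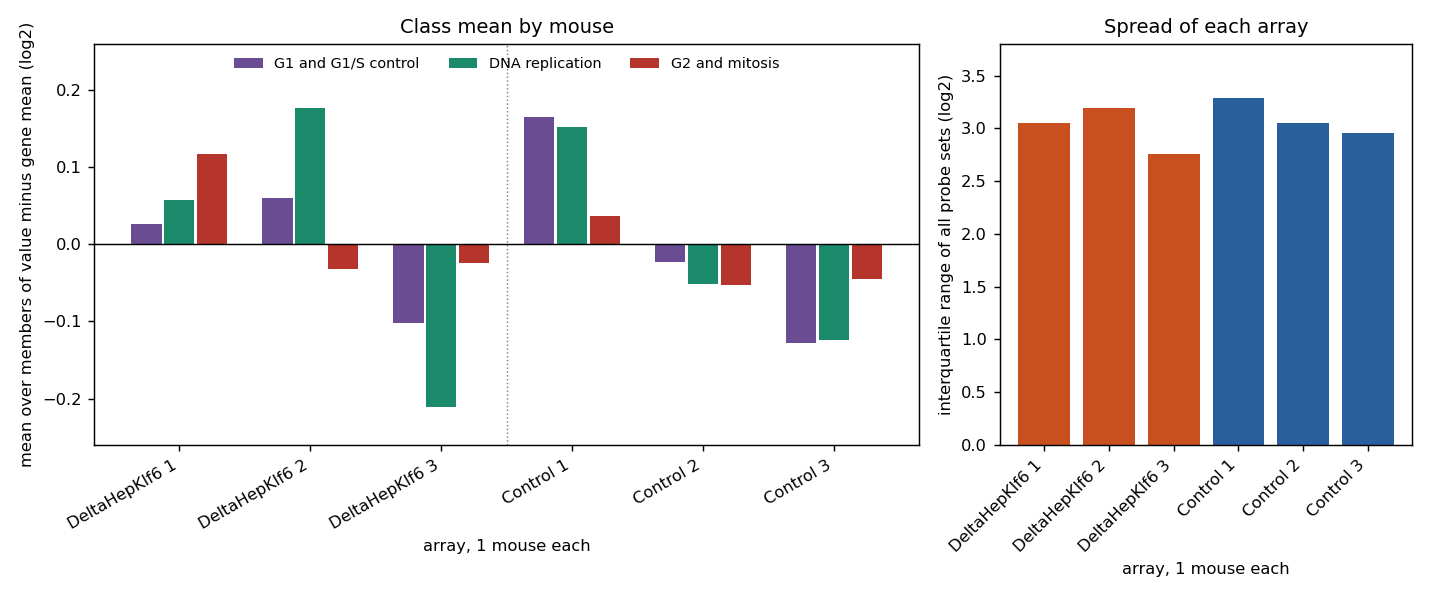
Left, average over the members of a phase of the value minus its gene's mean over 6 arrays (log2, vertical axis), for each mouse, as bars coloured by phase. Right, interquartile range of all probe sets per array, where replication genes stand lowest in DeltaHepKlf6 3, the array with the smallest range, 2.76.

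DeltaHepKlf6 3 was also the liver with most of the lowest values in the wider list of replication origin and fork genes. Of 38 measured genes, among them those for the origin recognition complex, DNA polymerases and replication factor C, 24 had their lowest value in DeltaHepKlf6 3 and 34 lay below their mean there. In the 12203 genes of the same range of levels, 40.3% were lowest in that liver and 72.3% lay below their mean. After quantile normalization the counts were 18 and 31 of 38, against 26.9% and 60.0% of those genes. Low values in DeltaHepKlf6 3 were also seen outside replication. As deposited, 4 of 5 other inhibitors, 5 of 7 deoxynucleotide supply genes and 5 of 9 p53 pathway genes were lowest in DeltaHepKlf6 3. The shares in their ranges of levels were 40.1%, 44.1% and 51.3%. Quantile normalization gave 4 of 5, 2 of 7 and 3 of 9, against 27.0%, 27.7% and 27.9%. As deposited, other lists gave 3 of 14 for G1 control, 3 of 13 for mitosis and 4 of 8 for other E2F genes. The shares beside them were 43.7%, 24.5% and 44.9%. Spindle genes gave 14 of 37 and mitotic kinase control genes 5 of 16, against 38.9% and 32.6%. With quantile normalization G1 control gave 0 of 14, mitosis 4 of 13 and other E2F genes 3 of 8. The shares were then 28.8%, 25.3% and 28.2%. Spindle genes gave 13 of 37 and mitotic kinase control genes 6 of 16, against 26.5% and 26.7%. Of these 2 lists 29 of 37 and 11 of 16 then lay below their mean in DeltaHepKlf6 3, against 60.1% and 61.4%. By genotype 21 of the 38 origin and fork genes were higher and 17 lower in DeltaHepKlf6. None passed limma's test, and the median difference was 0.01. Rpa2, a subunit of the protein that coats single-stranded DNA, differed by -0.35 ± 0.18 (SE), and Fen1, the flap endonuclease of the lagging strand, by -0.21 ± 0.16 (SE). The mean of Fen1, 3.725, lay below the 95th percentile of the receptor genes described later, 5.32. Cdt1, which loads the Mcm helicase, was 5.32, 5.44 and 5.20 in DeltaHepKlf6 and 5.48, 5.47 and 5.50 in Control. Its groups did not overlap, with a difference of -0.16 ± 0.13 (SE), whereas 6.72% of all probe sets had groups clear of each other. Of the 38 genes in this list, 1 was clear on the higher side and 1, Cdt1, on the lower. The background was 3.05% and 3.67% of all probe sets. Genes of deoxynucleotide supply were lower in 4 of 7, with a median of -0.18, and Samhd1, which degrades deoxynucleotides, differed by -0.26 ± 0.19 (SE).

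The starts of several replication genes carry the binding word of E2F factors. It was searched as TTCGCGC, the related word TTGGCGC or the third form TTCCCGC, on both strands of RefSeq promoters (GRCm38.p6), from 250 bases before to 50 after the start of the gene. Of the 38 members, 30 had such a promoter, including Pcna, Rrm2 and Ccnb1. Ccnd3, Cdkn2c and Mcm7 had 2 each, which gave 33 promoters. At least 1 of the words was present in 6 of 10 promoters of replication genes (60.0%), in 3 of 11 of G1 genes (27.3%) and in 3 of 12 of mitotic genes (25%), against 8.07% of all 32851 promoters. The promoters of Mcm5 and Mcm6 are printed as examples with repeated words, and that of E2f8 because it was the most negative member. Capitals mark these E2F words and, in E2f8, the word TTTGAA described with mitosis. In Mcm5 and Mcm6 the words of the opposite strands overlap, so that 1 stretch of capitals can hold 2 matches.
Mcm5 (chr8:75109259-75109558, plus strand): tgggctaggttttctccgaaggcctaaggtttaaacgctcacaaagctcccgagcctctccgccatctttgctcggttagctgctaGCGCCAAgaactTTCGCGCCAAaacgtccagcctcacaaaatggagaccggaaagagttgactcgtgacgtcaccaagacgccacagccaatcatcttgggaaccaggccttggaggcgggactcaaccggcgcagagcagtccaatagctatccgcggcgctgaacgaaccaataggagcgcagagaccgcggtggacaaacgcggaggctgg
Mcm6 (chr1:128359656-128359955, minus strand): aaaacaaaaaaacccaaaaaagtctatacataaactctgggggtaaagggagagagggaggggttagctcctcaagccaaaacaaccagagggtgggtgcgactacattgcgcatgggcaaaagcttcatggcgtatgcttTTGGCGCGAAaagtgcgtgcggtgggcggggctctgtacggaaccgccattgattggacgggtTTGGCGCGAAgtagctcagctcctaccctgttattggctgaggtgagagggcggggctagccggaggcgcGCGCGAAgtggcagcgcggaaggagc
E2f8 (chr7:48881547-48881846, minus strand): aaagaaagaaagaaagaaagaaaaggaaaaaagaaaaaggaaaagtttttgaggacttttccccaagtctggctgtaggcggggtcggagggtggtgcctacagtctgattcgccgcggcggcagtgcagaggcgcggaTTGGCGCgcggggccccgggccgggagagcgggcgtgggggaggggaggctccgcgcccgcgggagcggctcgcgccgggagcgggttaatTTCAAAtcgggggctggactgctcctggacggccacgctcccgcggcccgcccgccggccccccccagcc
Mcm5 held 3 matches, Mcm6 held 5 and E2f8 held 1, in reading 5′ to 3′ along the gene. Beside them stand the differences of -0.05 for Mcm5, 0.01 for Mcm6 and -0.37 for E2f8, none of which passed the test. The match is a description of the letters and says nothing of binding in these livers.

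Of 13 mitotic genes measured, 7 were higher and 6 lower in DeltaHepKlf6, with differences from -0.16 to 0.28. Birc5, encoding survivin, a subunit of the chromosomal passenger complex, was the 1 member of the whole set whose groups did not overlap. It was 5.86, 5.77 and 5.64 in DeltaHepKlf6, against 5.59, 5.53 and 5.63 in Control. The mean was 5.76 ± 0.11 in DeltaHepKlf6 and 5.58 ± 0.05 in Control (SD, n = 3 each), and DeltaHepKlf6 3 and Control 3 lay only 0.01 apart. The difference was 0.17 ± 0.13 (SE), with a 95% interval of -0.14 to 0.485 (limma, unadjusted p = 0.225, adjusted p = 0.998). That is 1 of 35 members, where 6.72% of all probe sets had groups clear of each other and 3.05% were clear on the higher side.

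Aurka and Kif11, genes of the spindle, had positive differences with overlapping groups. Aurka, the Aurora A kinase of the spindle poles, was 5.17, 5.03 and 5.14 in DeltaHepKlf6 and 4.81, 5.15 and 4.74 in Control. Control 2 lay among the DeltaHepKlf6 livers, and the difference was 0.21 ± 0.16 (SE), with a 95% interval of -0.17 to 0.595 (limma, unadjusted p = 0.223, adjusted p = 0.998). Kif11, the motor that separates the spindle poles, was 4.62, 4.51 and 4.11 in DeltaHepKlf6 and 4.13, 4.30 and 4.21 in Control. DeltaHepKlf6 3 was the lowest liver of all, and the difference was 0.20 ± 0.17 (SE), with a 95% interval of -0.22 to 0.62 (limma, unadjusted p = 0.293, adjusted p = 0.998). Without Control 3 the differences of Birc5, Aurka and Kif11 were 0.20, 0.13 and 0.20.

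Mki67, whose protein Ki-67 is the common marker of cycling cells, varied most of all members. It was 4.91, 3.39 and 4.34 in DeltaHepKlf6, against 4.67, 3.42 and 3.71 in Control. Each genotype held livers at both ends of this range, and the difference of 0.28 ± 0.48 (SE) was -0.07 without DeltaHepKlf6 1 and 0.69 without DeltaHepKlf6 2. Top2a and Cdk1 had a smaller range over the 6 livers than Mki67. The mean levels of Mki67, Top2a and Cdk1 were 4.07, 3.93 and 4.395. All lay below the 95th percentile of the receptor genes described later, 5.32, so what their values could show is limited by background. Top2a, the topoisomerase that untangles chromosomes, was 3.79, 3.88 and 3.87 in DeltaHepKlf6 and 4.10, 4.16 and 3.77 in Control. Cdk1, the mitotic kinase, was 4.51, 4.44 and 4.19 in DeltaHepKlf6 and 4.57, 4.43 and 4.23 in Control. The values of Cdk1 interleaved, and its difference was -0.03 ± 0.16 (SE).

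The cyclins of G2 and the remaining regulators had differences between -0.16 and 0.07. Ccna2, encoding cyclin A2, differed by -0.08 ± 0.20 (SE), and Ccnb2, encoding cyclin B2, by -0.03 ± 0.13 (SE). Cdc20, an activator of the anaphase-promoting complex, differed by -0.04 ± 0.195 (SE), with its lowest value, 4.94, in DeltaHepKlf6 3 and 5.28 to 5.54 in the other 5 livers. Top2a differed by -0.16 ± 0.15 (SE). The spindle checkpoint genes Bub1 and Bub1b differed by 0.07 ± 0.15 and -0.12 ± 0.17 (SE). Aurkb, the Aurora B kinase that works with survivin, differed by 0.003 ± 0.13 (SE), and Plk1, the Polo kinase, by 0.05 ± 0.16 (SE). The second, dimmer probe set of Plk1 differed by 0.04 ± 0.18 (SE).

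By mouse, DeltaHepKlf6 1 held the highest value of 5 of the 13 mitotic genes, which were Mki67, Ccna2, Aurka, Birc5 and Kif11. Of the 7714 genes of the same range of levels, 10.7% had their highest value in that liver. The average deviation of the mitotic genes was 0.12, -0.03 and -0.02 in DeltaHepKlf6 and 0.04, -0.05 and -0.04 in Control, a smaller range than that of the replication genes. Quantile normalization left the count at 5 of 13, and the share over other genes was not computed there. In the wider lists described below, DeltaHepKlf6 1 was highest in 6 of 37 spindle genes and 3 of 16 mitotic kinase control genes. After quantile normalization it was highest in 4 of 37 and 3 of 16. Average deviations of these lists in that liver were 0.01 and -0.04 as deposited, and -0.03 and -0.06 after quantile normalization.

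**Figure D4:**
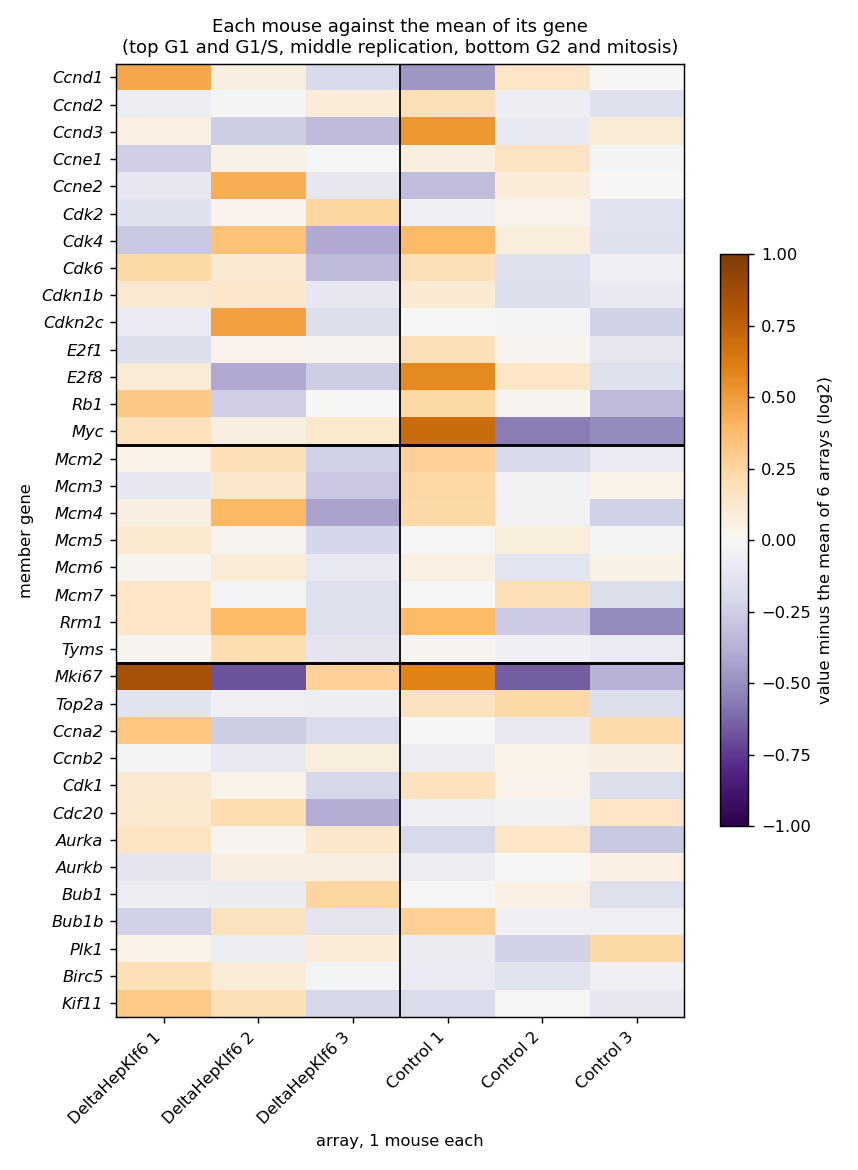
Value of each member minus its mean over the 6 arrays (log2, colour), with genes down the page by phase and mice across, DeltaHepKlf6 left of the line and Control right of it. The middle block of replication genes is below its mean in DeltaHepKlf6 3, and Mki67 and Myc show the strongest colours.

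Mitotic genes are known for another promoter word, the cell cycle homology region, searched here as TTTGAA on both strands. It was present in 9 of 12 mitotic promoters (75%), in 1 of 10 of replication genes (10%) and in 1 of 11 of G1 genes (9.09%), against 17.9% of all promoters. The CCAAT box, which often lies nearby, was present in 11 of 12 mitotic promoters (91.7%), against 37.4% of all, and the GC box GGGCGG in 10 of 12 (83.3%), against 35.7% of all. The GC box is a word that Sp and KLF factors can bind. It was as common in the promoters of G1 genes, with 9 of 11 (81.8%), and of replication genes, with 8 of 10 (80.0%). Promoters of Mki67, Cdk1 and Kif11 are printed as those of the most variable mitotic gene, of the mitotic kinase and of the spindle motor described above. Capitals mark the word TTTGAA or its complement TTCAAA, and the E2F words.
Mki67 (chr7:135716330-135716629, minus strand): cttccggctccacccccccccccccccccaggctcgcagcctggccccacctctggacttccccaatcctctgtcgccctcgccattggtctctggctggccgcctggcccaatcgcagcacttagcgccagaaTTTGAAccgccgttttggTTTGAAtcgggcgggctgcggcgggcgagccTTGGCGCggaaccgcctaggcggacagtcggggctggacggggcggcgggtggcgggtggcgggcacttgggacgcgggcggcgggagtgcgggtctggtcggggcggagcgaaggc
Cdk1 (chr10:69352863-69353162, minus strand): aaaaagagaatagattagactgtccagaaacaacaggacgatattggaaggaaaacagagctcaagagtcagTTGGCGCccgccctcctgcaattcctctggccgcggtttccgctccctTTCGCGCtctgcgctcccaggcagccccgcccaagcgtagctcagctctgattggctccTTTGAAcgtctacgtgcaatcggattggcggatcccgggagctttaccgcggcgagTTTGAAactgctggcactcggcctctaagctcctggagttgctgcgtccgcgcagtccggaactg
Kif11 (chr19:37376132-37376431, plus strand): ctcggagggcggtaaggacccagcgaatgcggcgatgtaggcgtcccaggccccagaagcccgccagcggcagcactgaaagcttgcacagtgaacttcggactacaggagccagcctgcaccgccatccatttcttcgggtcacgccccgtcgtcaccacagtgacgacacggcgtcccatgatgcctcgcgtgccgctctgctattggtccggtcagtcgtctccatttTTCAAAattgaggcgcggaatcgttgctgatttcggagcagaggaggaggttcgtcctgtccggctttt
Mki67 and Cdk1 each held 2 matches to TTTGAA, and Kif11 held 1. Counted from the start as 0, the matches began at positions -71 and -15 in Cdk1, at -116 and -98 in Mki67 and at -19 in Kif11. Mki67 and Cdk1 held both words, and their range over the 6 livers was 1.52 for Mki67 and 0.38 for Cdk1. A link between the words and these ranges was not tested.

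How far these genes stood above background could not be read directly, because no detection values were used here. Receptors of smell and pheromones, taken as genes that liver is not known to express, gave a stand-in. The 800 measured had a median of 3.11 and a 95th percentile of 5.32 on the log2 scale. Below that percentile lay 9 of 13 mitotic genes, 4 of 8 replication genes and 2 of 14 G1 genes, Ccne1 and E2f1. Probe sets differ in how strongly they bind, so a low value does not show that a gene is silent.

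**Figure D5:**
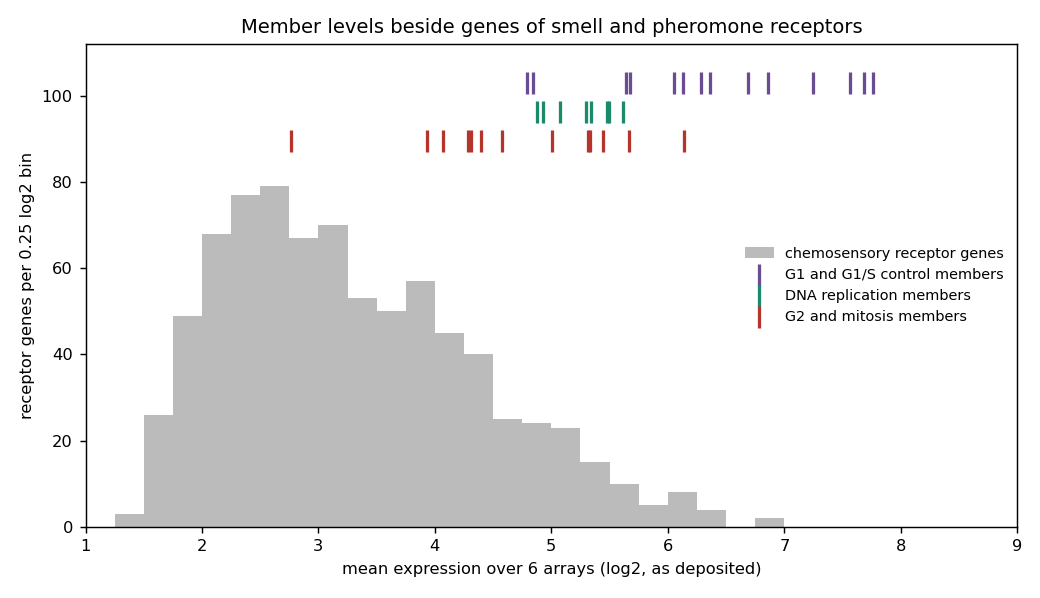
Histogram of the mean log2 level of 800 chemosensory receptor genes (grey, vertical axis in genes per bin), with the mean level of each member as a coloured tick above it, a row for each phase. Of the mitotic genes 9 of 13 lie below the 95th percentile of the receptors, 5.32, and 12 of 14 G1 genes lie above it.

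Of 37 spindle, kinetochore and cytokinesis genes 16 were higher and 21 lower in DeltaHepKlf6, with a median of -0.04. None passed limma's test. Ndc80, an outer kinetochore protein gene, differed by 0.55 ± 0.29 (SE) with overlapping groups. Its mean of 3.65 lay at a level where receptor genes are common. Smc4, a condensin subunit gene, was 7.38, 6.95 and 6.83 in DeltaHepKlf6 and 6.77, 6.79 and 6.59 in Control, a difference of 0.34 ± 0.18 (SE) without overlap. Cenpa, the centromere histone gene, was 5.53, 5.32 and 5.15 in DeltaHepKlf6 and 5.58, 5.55 and 5.72 in Control, a difference of -0.28 ± 0.15 (SE) without overlap. In this list 2 genes were clear on the higher side and 3 on the lower, where the background was 3.05% and 3.67% of all probe sets.

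Among 16 genes of mitotic kinase control and degradation 7 were higher and 9 lower, with a median of -0.01. Lin9, a subunit of the complex that binds the cell cycle homology region, was 4.18, 3.97 and 3.73 in DeltaHepKlf6 and 3.71, 3.64 and 3.25 in Control, a difference of 0.43 ± 0.19 (SE). Cdkn3, a phosphatase that acts on cyclin-dependent kinases, was 3.28, 3.26 and 3.11 in DeltaHepKlf6 and 3.49, 3.54 and 3.64 in Control. The groups were clear of each other in both genes. That is 1 of 16 on the higher side and 1 on the lower, where the background was 3.05% and 3.67% of all probe sets. The difference was -0.34 ± 0.13 (SE) for Cdkn3 (limma, unadjusted p = 0.0367, adjusted p = 0.998). Lin9 and Cdkn3 lay at levels where receptor genes are common. Ccnf, encoding cyclin F, differed by -0.32 ± 0.16 (SE).

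Inhibitors and p53 targets outside the 38 genes held larger differences, again without passing the test. Of 5 other inhibitors 4 were lower in DeltaHepKlf6, among them Cdkn1a and Cdkn3, which is also counted with mitotic kinase control. Cdkn2a, encoding p16 and p19, differed by -0.13 ± 0.15 (SE). In the p53 pathway 4 of 9 were higher and 5 lower, with a median of -0.01. Gadd45b and Gadd45a, stress genes that restrain the cycle, differed by -0.57 ± 0.28 and -0.49 ± 0.41 (SE), and Ccng1, a p53 target, by 0.27 ± 0.16 (SE). Of 8 other E2F and pocket protein genes 5 were lower, and E2f2, an activator, differed by -0.25 ± 0.17 (SE), E2f6 by 0.21 ± 0.19 (SE) and E2f4 by -0.19 ± 0.21 (SE).

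Whole liver mixes hepatocytes with cells that can divide on their own schedule, and fewer cells of a type cannot be told apart from less RNA per cell. Macrophage and Kupffer cell markers were lower in DeltaHepKlf6 in 9 of 9, with a median of -0.49 and list means of 7.58, 7.68 and 7.05 in DeltaHepKlf6 and 8.19, 7.85 and 7.69 in Control. DeltaHepKlf6 3, where the replication genes were lowest, thus also had the lowest macrophage mean, and Control 1 the highest. The same held for the mean over all genes, 5.92 and 6.18 in these livers. It also held for neutrophil, erythroid, endothelial, stellate cell and hepatocyte markers. It did not hold for T and NK cell, B and plasma cell, cholangiocyte or pancreas markers. Of the T and NK cell markers 6 of 8 had a negative difference (median -0.12), with list means of 4.61, 4.65 and 4.36 in DeltaHepKlf6 and 4.59, 4.78 and 4.71 in Control. The difference was negative for 5 of 5 B and plasma cell genes (median -0.12), 6 of 8 neutrophil genes (median -0.465) and 2 of 4 erythroid genes (median -0.005). It was negative for 6 of 8 endothelial genes (median -0.11), 7 of 8 stellate cell genes (median -0.12) and 2 of 4 cholangiocyte genes (median -0.02). None of these markers passed limma's test, and the part of any cell type in the values of the cell cycle genes was not tested.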

How the data were processed

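The deposited table holds log2 values of 23332 transcript probe sets on 6 arrays, which per the submitters' processing notes were made with Affymetrix Expression Console, RMA and limma, without versions, roles or order. Their range of 0.65 to 14.35 fits the log2 scale of the authors' RMA step. No source used here names the genome build of the probe sets. No arrays were identical, and 0 sample columns were left unused. The number of arrays limits the precision.

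Groups and replicate numbers came from the sample titles, which name separate mice. Gene names came from the platform annotation, and 14996 probe sets named 1 gene. The 2 genotypes were compared in 1 linear model of limma 3.58.1 (R 4.3.3; lmFit, then eBayes) over all probe sets, without a filter or covariate, with Benjamini-Hochberg adjustment over all of them and a threshold of 0.05. The fit was tested on simulated data. Members and lists were chosen with earlier results of these data known. Lists are described by counts and medians, with no test of their own. All members are named. Values in every array with full statistics are given for Klf6, for members without overlap and for the 3 of each phase with the smallest p, and by array where a mouse stood apart. Other lists give up to 3 genes by p. Marker lists are given as counts, median differences or list means by array, and the neutrophil genes are also named. Tables were made in Python 3.11.15 (pandas 2.3.3) and plots with matplotlib 3.10.9.

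The other settings were quantile normalization, equal array medians, a filter that drops the dimmest 25% or 50%, an intensity trend with robust hyperparameters, the replicate number as a block, each array left out, and the mean over all probe sets of a gene. Array patterns after quantile normalization were added after the data were seen.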

Additional observations from a re-analysis of the deposited data

How the results depend on the processing

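No member was called by limma under any of the 13 alternatives, where the smallest adjusted p of a member was 0.661, without DeltaHepKlf6 2. At an unadjusted p under 0.05 the count was 0 to 1 in G1 control, the 1 being Myc without Control 1, and 0 in the other phases. With 1 array left out, members without overlap numbered 1 to 2 in G1 control, 0 to 1 in replication and 1 to 3 in mitosis, while the share of all probe sets without overlap was 12.8% to 26.2%, since fewer arrays overlap less. Birc5 stayed clear in each case, as it must, since leaving out an array cannot make clear groups overlap. Median differences ranged from -0.04 to 0.06 in G1 control, -0.06 to 0.09 in replication and -0.025 to 0.03 in mitosis. The median of G1 control was 0.12 with quantile normalization.

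A filter on the dimmest 25% left 32 members, and one on the dimmest 50% left 15, of which only Rrm1 was a replication gene, so that this median was 0.26. Of 35 members, 14 kept their sign in every alternative. With equal array medians Mcm2 was 0.0167 and Mcm7 0.0033, and with quantile normalization Ccnb2 was 0.02. With 1 array left out, the sign turned in 21 members, with these lowest and highest differences. In G1 control they were -0.065 and 0.105 for Ccnd2, -0.0267 and 0.243 for Ccne2, -0.0067 and 0.188 for Cdk2, -0.11 and 0.17 for Cdk6, -0.045 and 0.28 for Cdkn2c, -0.143 and 0.0067 for E2f1, and -0.11 and 0.18 for Rb1. In replication they were -0.10 and 0.13 for Mcm2, -0.17 and 0.24 for Mcm4, -0.123 and 0.0467 for Mcm5, -0.0483 and 0.0667 for Mcm6, -0.107 and 0.0783 for Mcm7, and -0.0117 and 0.153 for Tyms. In mitosis they were -0.0683 and 0.692 for Mki67, -0.262 and 0.0283 for Ccna2, -0.075 and 0.01 for Ccnb2, -0.12 and 0.065 for Cdk1, -0.15 and 0.15 for Cdc20, -0.0283 and 0.0667 for Aurkb, -0.0317 and 0.128 for Bub1, and -0.055 and 0.175 for Plk1. The cause of these turns was not tested.

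Replicate numbers were not taken as pairs. Deviations from the group means correlated by -0.13, -0.17 and 0.21 between mice of the same number. Between mice of different numbers the correlations ran from -0.28 to 0.34. With 3 mice in a group these values cannot decide whether mice were paired. With the replicate number as a block 0 members were called and 0 had an unadjusted p under 0.05, and over all probe sets the count at that p was 884, against 750 without the block. Detection values were not used, so what dim genes could show is limited by background.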
